A study of Mus musculus with 12 samples.

Results

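The subject is the interaction of T3 and XCT790 in mouse liver, the difference between the T3 response of mice given XCT790 and the T3 response of mice not given it. It was measured on all 12 arrays of the series, 3 in each of 4 groups, and computed for each gene as (XCT790 with T3 minus XCT790) minus (T3 minus control) on the log2 scale. All animals were 8-week-old male C57BL/6 mice with no genetic change named. Controls had no recorded injection, the T3 group had daily intraperitoneal L-T3 for 3 days, the XCT790 group daily intraperitoneal XCT790 for 4 days, and the last group XCT790 for 4 days with L-T3 on the last 3. The labels do not record a vehicle injection for controls, so a difference between controls and all 3 injected groups cannot be told apart from an effect of injection. Arrays are numbered 1 to 3 in each group, and nothing says that the numbers stand for separate mice; the p-values therefore describe how these arrays vary, which may be technical variation alone.

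T3, or triiodothyronine, is the active thyroid hormone. It binds thyroid hormone receptors, nuclear receptors that sit on target genes and drive them when the hormone arrives, and in liver it is known for raising lipid synthesis, cholesterol turnover and mitochondrial respiration. XCT790 lowers the activity of ESRRA (estrogen-related receptor alpha, of which it is an inverse agonist), an orphan nuclear receptor that works with the coactivator PPARGC1A on genes of mitochondrial energy metabolism. If both compounds acted independently on a gene, their fold changes would multiply, the log2 effects would add and the interaction would be 0. A negative interaction means that the group given both is lower than that sum and a positive one that it is higher.

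Of 9747 genes tested, 45 had an interaction that passed the threshold (0.462%), 18 positive (0.185%) and 27 negative (0.277%), by limma with Benjamini-Hochberg adjustment over all genes, adjusted p under 0.05, two-sided. Sizes ran from 0.78 to 2.86 on the log2 scale, and adjusted p from 0.00143 to 0.0459. In the same fit T3 changed 1574 genes without XCT790 (16.1%) and 1481 with it (15.2%), while XCT790 changed 433 genes without T3 (4.44%) and 9 in mice given T3 (0.0923%). The SD over genes of the XCT790 effect was 0.31 without T3 and 0.24 with it, and that of the T3 response was 0.44 without XCT790 and 0.43 with it. Across the 9747 genes, which are not independent replicates, the T3 responses without and with XCT790 correlated at r = 0.69. The XCT790 effects without and with T3 correlated at r = 0.22, and neither pair of contrasts shares an array. Controls had no recorded injection, so the contrasts against them may hold an effect of injection. The smaller count and spread of XCT790 effects in mice given T3 cannot be told apart from this.

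The count of called genes depended on single arrays and settings. Leaving out 1 array gave between 19 (without T3 array 2) and 96 calls (without T3 array 1), and the settings tried gave 25 to 147. All 45 interactions kept their sign in each of these fits that measured them, but Dlx1as, near background, went from 1.01 to -0.08 with undetected groups held at the lowest detected signal. In mice given both compounds the median background-corrected log2 intensity before scaling was 6.51 to 6.76, against 6.82 to 7.12 in controls, 6.93 to 7.04 with T3 and 6.64 to 7.27 with XCT790; the part of this signal level in the result was not tested. With median scaling in place of quantile scaling there were 64 calls, among them 42 of the 45. Bulk liver cannot tell a change in the RNA of a cell from a change in the number of cells of a type. Hepatocyte genes were bright, with control means of 15.15 for Apoa1 and 15.18 for Cyp2e1, although the Alb probe was dim at 5.97. None of 14 hepatocyte, 12 macrophage, 16 endothelial and 13 stellate cell markers tested had a called interaction (0.462% of all genes), at median interactions of -0.01, 0.08, -0.18 and -0.17. The same held for 3 cholangiocyte, 3 lymphocyte, 3 neutrophil and 6 erythroid markers, at medians of 0.21, 0.31, 0.16 and 0.05, and for 4 markers of other organs, at 0.21. Among the last, the pancreatic elastases Cela1 and Cela2a had interactions of 0.47 and 0.87 (limma adjusted p = 0.332 and 0.383). The macrophage markers had median T3 responses of 0.75 without and 0.81 with XCT790.

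**Figure D1:**
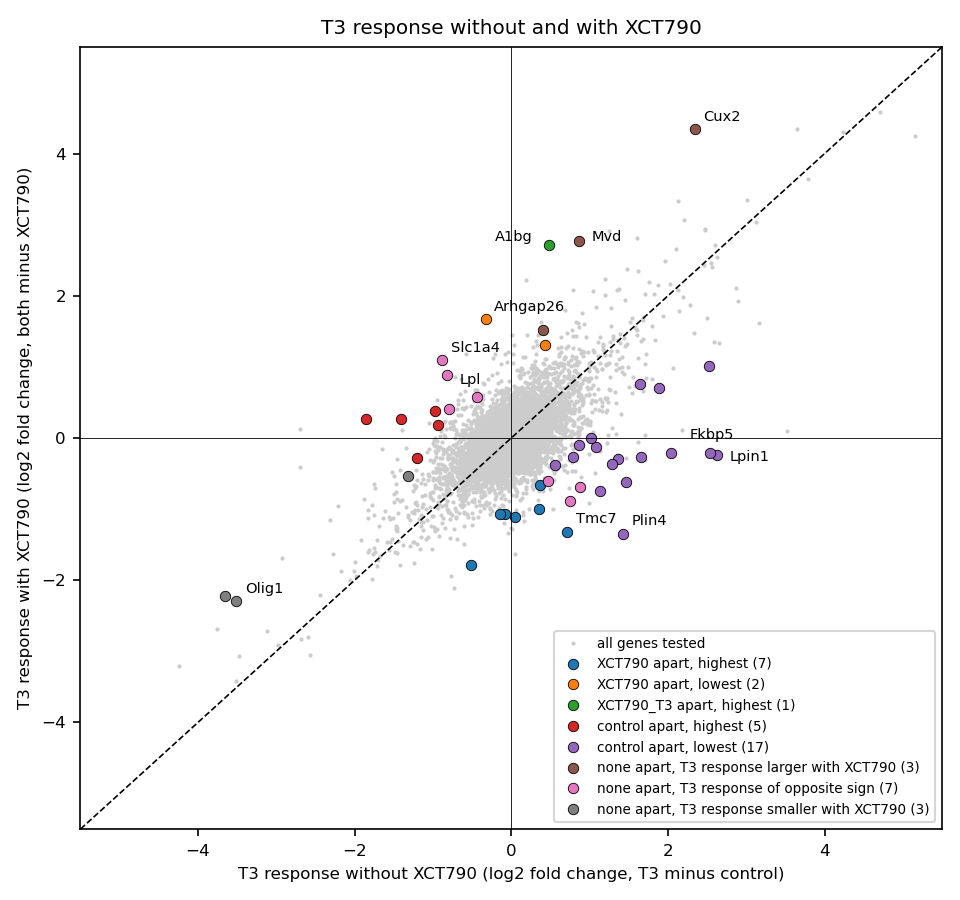
Each point is a gene, placed by its T3 response without XCT790 (horizontal, log2 fold change of T3 over control) and with XCT790 (vertical, log2 fold change of both over XCT790 alone). Grey points are all 9747 genes, coloured points the 45 called ones by the shape of their group means, and the dashed line marks equal responses; the 17 genes with controls lowest have T3 responses of 0.56 to 2.62 without XCT790 and -1.34 to 1.01 with it.

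The called genes were sorted by the shape of their 4 group means. A group was said to stand apart when its mean was the lowest or highest and its gap to the next was at least the range of the other 3. Controls stood apart in 22 of the 45 genes, as the lowest group in 17 and the highest in 5. XCT790 alone stood apart in 9, highest in 7 and lowest in 2, and the group given both in 1, as the highest. T3 alone stood apart in 0 called genes. Another 13 had no group apart, of which 3 responded to T3 more strongly with XCT790, 3 less strongly and 7 with the opposite sign. Over all 9747 genes controls were lowest in 6.56% and highest in 6.86%, XCT790 was highest in 5.60% and T3 was highest in 5.32%. The shapes with no group apart held 19.3% (T3 response larger with XCT790), 19.6% (smaller) and 13.5% (opposite sign) of all genes. The shapes come from the same means as the interaction and are given as a description.

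**Figure D2:**
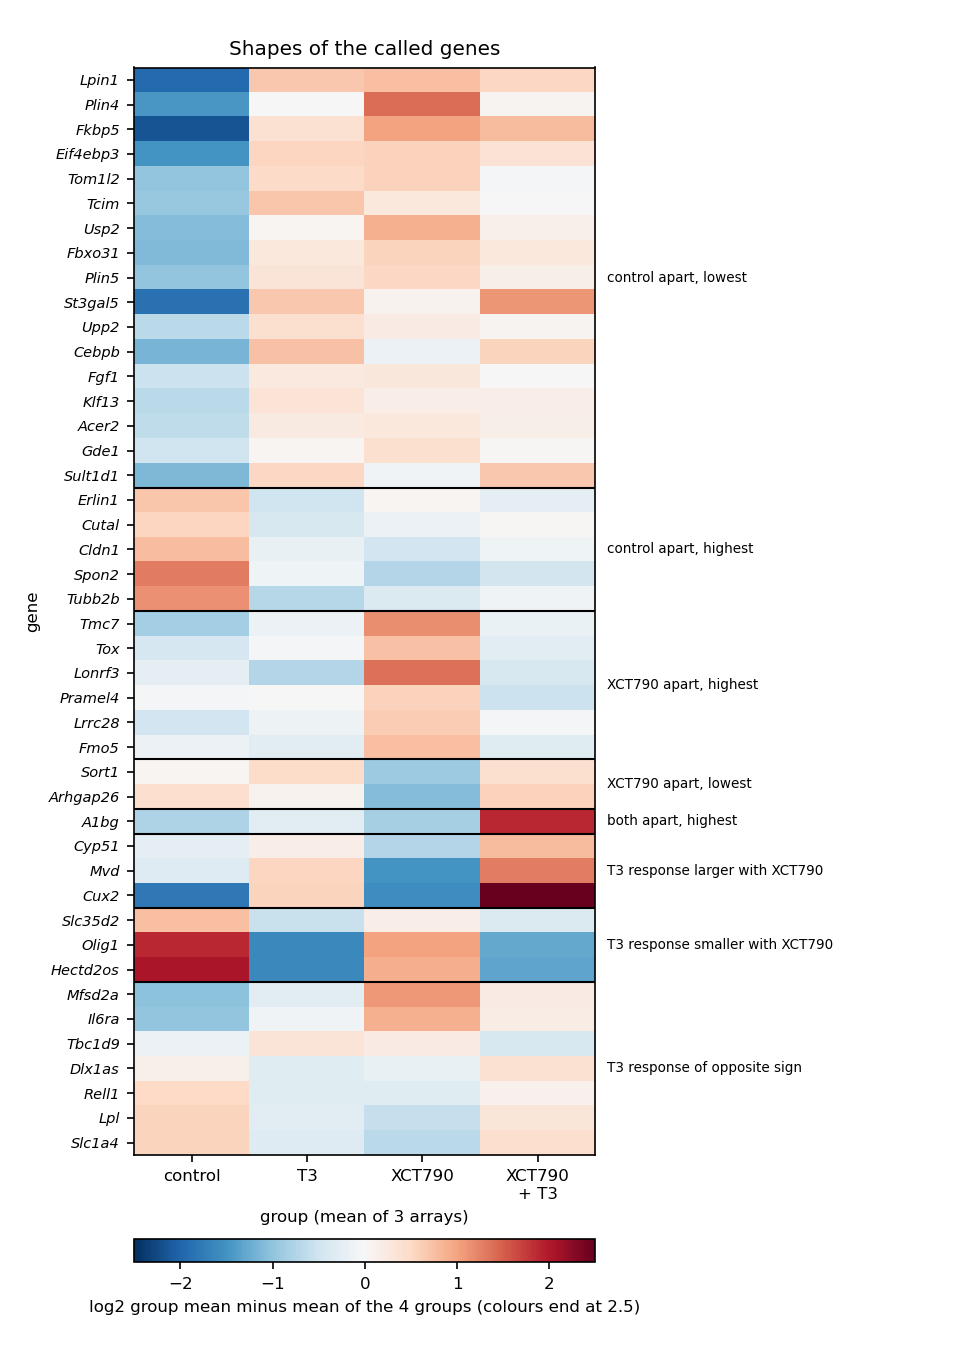
Rows are the 44 called genes with ordinary names, grouped by shape, and columns the 4 groups. Colour gives the log2 mean of 3 arrays minus the mean over the 4 groups, from blue (lower) to red (higher), and ends at 2.5. The 17 genes of the top block are lowest in controls, and the 3 injected groups differ among themselves in some of them, such as Usp2.

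Promoter sequences from RefSeq (build GRCm38.p6, 250 bases before to 50 after a start site) were found for 32 of the 45 genes. They were searched on both strands for 4 motifs, which are AGGTCA, the half-site that thyroid hormone receptors and estrogen-related receptors share, TCAAGGTCA, the extended estrogen-related receptor element that contains it, TGTTCT, the glucocorticoid receptor half-site, and CACGTG, the E-box bound by clock factors among others. AGGTCA was found in 8 of the 32 (25%), against 15.5% of the 7906 tested genes with a promoter and 16.3% of all 32851 promoters. TCAAGGTCA was found in 0 of the 32, against 0.342% of tested genes and 0.423% of all promoters. TGTTCT was found in 2 (6.25%, against 15.7% of tested genes and 19% of all promoters) and CACGTG in 5 (15.6%, against 12.2% and 7.15%). A gene counted when any of its promoters held the motif, while the shares of all promoters count each promoter once. A match is a string of letters and does not show a bound site. The promoters of Lpin1 and Fkbp5, 2 of the most negative interactions, of Upp2, which held AGGTCA at 2 places, and of A1bg, the most positive interaction, are printed 5′ to 3′ with the half-sites and the E-box in capitals.
Lpin1 promoter, chr12:16610917-16611216, strand -: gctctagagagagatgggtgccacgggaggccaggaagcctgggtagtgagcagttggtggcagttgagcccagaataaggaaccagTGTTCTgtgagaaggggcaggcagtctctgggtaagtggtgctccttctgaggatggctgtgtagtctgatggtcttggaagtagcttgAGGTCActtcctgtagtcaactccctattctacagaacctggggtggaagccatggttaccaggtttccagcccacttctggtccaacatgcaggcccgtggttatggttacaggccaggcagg
Fkbp5 promoter, chr17:28486100-28486399, strand -: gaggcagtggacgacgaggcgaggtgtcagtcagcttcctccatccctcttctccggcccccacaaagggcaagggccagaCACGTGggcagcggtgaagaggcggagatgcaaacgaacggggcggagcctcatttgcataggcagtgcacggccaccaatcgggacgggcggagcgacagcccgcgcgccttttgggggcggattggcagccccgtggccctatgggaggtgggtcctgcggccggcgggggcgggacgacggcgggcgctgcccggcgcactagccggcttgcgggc
Upp2 promoter, chr2:58754934-58755233, strand +: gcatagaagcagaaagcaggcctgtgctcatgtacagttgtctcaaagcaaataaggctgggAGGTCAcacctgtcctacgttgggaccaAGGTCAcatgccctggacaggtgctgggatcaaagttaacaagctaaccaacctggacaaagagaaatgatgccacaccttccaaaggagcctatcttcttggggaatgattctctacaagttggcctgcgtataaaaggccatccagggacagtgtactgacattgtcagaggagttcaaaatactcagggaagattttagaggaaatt
A1bg promoter, chr15:60921221-60921520, strand -: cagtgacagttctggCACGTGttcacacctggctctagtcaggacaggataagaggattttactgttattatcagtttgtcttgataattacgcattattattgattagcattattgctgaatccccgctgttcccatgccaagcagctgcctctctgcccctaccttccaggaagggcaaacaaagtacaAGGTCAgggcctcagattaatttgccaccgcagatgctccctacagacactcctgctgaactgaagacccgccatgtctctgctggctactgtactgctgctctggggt
In Lpin1 the AGGTCA began 74 bases and the TGTTCT 163 bases upstream of the start site. In Upp2 the AGGTCA copies began 188 and 160 bases upstream, and in A1bg 1 copy began 59 bases upstream. Another Upp2 promoter, at a different start site, held 0 of the motifs.

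In the 17 genes with controls lowest, each compound alone raised the gene, and the group given both lay below the sum of the 2 effects. All 17 rose with T3 alone, by 0.56 to 2.62 on the log2 scale (median 1.43), and all 17 rose with XCT790 alone, by 0.84 to 3.17 (median 1.49); these contrasts share the control arrays. In mice given XCT790, their T3 responses ran from -1.34 to 1.01 with a median of -0.24, with 3 higher, 2 lower and 12 not passing the test. In mice given T3, XCT790 changed 0 of the 17 at an adjusted p under 0.05, where it changed 9 of all 9747 genes (0.0923%). The shape places all 3 injected groups above controls, within a range no larger than the gap. The rises with each compound alone and the closeness of the injected groups are therefore part of the sorting and not a result. Because controls are the odd group, their gap to the injected groups cannot be told apart from a response to injection. The same limit holds for the 5 genes with controls highest. It concerns the gap to controls, and not the T3 responses between the 2 groups given XCT790.

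Lpin1, a phosphatidate phosphatase of triglyceride synthesis and a coactivator of fasting genes, had the largest called interaction. Its normalized log2 intensity was 7.60, 7.95 and 7.90 in controls, 9.90, 10.78 and 10.64 with T3, 10.74, 10.46 and 10.38 with XCT790 and 10.11, 10.14 and 10.62 with both. The 3 injected groups overlapped each other, and every one of their arrays lay above every control. Lpin1 was 6.17-fold higher with T3 than in controls (log2 2.62, SE 0.22) and 6.55-fold higher with XCT790 (log2 2.71, SE 0.22). The interaction was -2.86 (SE 0.31, 95% interval -3.54 to -2.19, limma adjusted p = 0.00422), and a second Lpin1 probe gave -2.75. The adjusted p stayed at or below 0.0226 without any single array.

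Fkbp5, a co-chaperone of steroid receptors and a widely used marker of glucocorticoid action, followed the same shape. Its log2 intensity was 6.53, 6.70 and 6.97 in controls, 8.67, 9.46 and 9.69 with T3, 10.23, 9.64 and 9.82 with XCT790 and 9.64, 9.77 and 9.65 with both. All injected arrays lay above all controls, with T3 array 1 the lowest of the 9. The interaction was -2.75 (SE 0.33, limma adjusted p = 0.00596), and the adjusted p stayed at or below 0.0253 without any single array. Usp2, a deubiquitinase with a daily rhythm in liver, stood at 9.20, 9.23 and 8.92 in controls, 10.12, 10.27 and 10.36 with T3, 11.23, 11.15 and 10.85 with XCT790 and 10.26, 10.12 and 10.61 with both. XCT790 alone was the highest group, without overlap, so that T3 raised Usp2 by 1.14 without XCT790 and lowered it by 0.75 with it (limma adjusted p = 0.000315 and 0.0059). Its interaction was -1.88 (SE 0.21, adjusted p = 0.00422).

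Plin4 and Plin5, coat proteins of lipid droplets, were called together. Plin4 measured 6.64, 6.05 and 6.20 in controls, 7.49, 8.38 and 7.31 with T3, 9.63, 9.51 and 8.31 with XCT790 and 7.51, 7.70 and 8.20 with both. XCT790 array 3 fell among the T3 arrays while arrays 1 and 2 were the highest of the 12. T3 raised Plin4 by 1.43 without XCT790 and lowered it by 1.34 with it, and the interaction was -2.77 (SE 0.50, limma adjusted p = 0.0382). The Plin4 call rested on most of the arrays, since 9 of the 12 fits without 1 array lost it, at adjusted p of up to 0.0956. Plin5 rose by 1.28 with T3 and by 1.49 with XCT790, with an interaction of -1.65 (SE 0.24, adjusted p = 0.0156).

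Eif4ebp3, a repressor of cap-dependent translation, measured 6.36, 6.37 and 5.68 in controls, 7.71, 8.09 and 8.75 with T3, 8.33, 8.07 and 8.27 with XCT790 and 7.87, 7.94 and 8.20 with both. Only controls were separated from the rest, and the interaction was -2.26 (SE 0.35, limma adjusted p = 0.0176). The call was lost without XCT790 array 1 or without array 1 of both compounds, at adjusted p of up to 0.0566. Tom1l2, an adaptor of endosomal sorting, was detected on 0 of 3 control arrays and on all 9 others. Its log2 intensity was 4.74, 4.76 and 4.83 in controls, 6.14, 5.79 and 6.78 with T3, 6.13, 6.03 and 6.84 with XCT790 and 5.73, 5.56 and 5.85 with both. It was at least 2.10-fold higher with T3 than in controls and at least 2.23-fold higher with XCT790, where the bound is taken over the lowest signal that counted as detected on the control arrays. The interaction was -2.08 (SE 0.34), or -1.69 with controls held at that lowest detected signal, and the call was lost without any of the control arrays or without array 1 or 2 of both compounds, at adjusted p of up to 0.0717.

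Of the other 10 genes of this shape, 3 also rose with T3 in mice given XCT790. Cebpb, a transcription factor of gluconeogenesis and the acute phase, rose by 1.89 with T3 without XCT790 and by 0.70 with it, with an interaction of -1.19 (SE 0.17, adjusted p = 0.0121). St3gal5, which makes the ganglioside GM3, rose by 2.53 and 1.01, with an interaction of -1.51. Sult1d1, a sulfotransferase, rose by 1.64 and 0.76. These 3 are the genes of the shape whose T3 response passed the test both without and with XCT790 in the same direction, and each was smaller with it. A dim second Sult1d1 probe gave an interaction of 0.07.

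The remaining 7 had T3 responses of 0.56 to 1.66 without XCT790 and none that passed the test with it. Fbxo31, a substrate receptor of a ubiquitin ligase, had an interaction of -1.65 (adjusted p = 0.0121) that its 2 other probes shared, at -1.46 and -1.17. Tcim had -1.93, Upp2, a liver uridine phosphorylase, -1.20, Fgf1, a growth factor of glucose control, -1.06 and Klf13, a zinc finger transcription factor, -1.02. Acer2, a ceramidase, had -0.96 and Gde1, a glycerophosphodiesterase, -0.93. Upp2 was among the genes nearest the threshold, with an adjusted p of 0.0454. Just inside it lay Slc35d2 at 0.0459, and just outside Rprd1a, Ccnl2, Morc3 and Gpat4 at 0.0529.

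The 5 genes with controls highest were the mirror of this, falling with either compound alone. They fell by 0.94 to 1.85 with T3 and by 0.66 to 2.04 with XCT790, directions that the shape fixes. With XCT790 present 0 of the 5 responded to T3 at an adjusted p under 0.05 (15.2% of all genes). Tubb2b, a beta tubulin, measured 9.13, 8.85 and 9.20 in controls, 7.72, 7.29 and 6.61 with T3, 7.23, 8.11 and 7.35 with XCT790 and 7.93, 7.88 and 7.68 with both. The controls lay above all 9 other arrays, whose 3 groups overlapped, and the interaction was 2.12 (SE 0.38, limma adjusted p = 0.0375). That call was lost in 10 of 12 fits without 1 array, at adjusted p of up to 0.0956. Spon2, a matrix protein, had an interaction of 1.67, Cldn1, a claudin of tight junctions, 1.36, Cutal 1.11 and Erlin1, a membrane protein of endoplasmic reticulum degradation, 0.93. Dim second probes of Spon2 and Erlin1 gave 0.07 and 0.24, and a second Cutal probe gave 0.50. Of these 5 genes, only Cldn1 was called in every fit without 1 array.

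XCT790 alone stood highest in 7 genes, 6 with ordinary names, and was lower where T3 was added. With XCT790 alone the 7 rose by 0.55 to 2.01 (median 1.11). In mice given XCT790 T3 lowered all 7, by 0.66 to 1.78, and the shape fixes both directions. Tmc7, of a family of transmembrane channel-like proteins, measured 6.57, 6.49 and 6.91 in controls, 7.14, 7.51 and 7.47 with T3, 9.04, 8.60 and 8.35 with XCT790 and 7.34, 7.17 and 7.54 with both. The XCT790 arrays lay above all others, and the T3 arrays and those with both overlapped. T3 raised Tmc7 by 0.72 without XCT790 and lowered it by 1.31 with it, and the interaction was -2.03 (SE 0.26, limma adjusted p = 0.0092). Without any single array its adjusted p stayed at or below 0.0363.

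Fmo5, a flavin monooxygenase abundant in liver, measured 11.42, 11.75 and 11.44 in controls, 11.56, 11.33 and 11.28 with T3, 12.38, 12.33 and 12.59 with XCT790 and 11.40, 11.40 and 11.29 with both. Only XCT790 alone was raised, by 1.87-fold over controls, with an interaction of -0.92 (SE 0.17, adjusted p = 0.0422) and of -1.61 in a second probe. The call held in 8 of 10 other settings, being lost without the filter on dim probes and with the replicate block, but in only 1 of 12 fits without 1 array, at adjusted p of up to 0.101. Tox, a chromatin protein known from T cells, had -1.36, Lonrf3, a RING finger protein, -1.27, Pramel4 -1.16 and Lrrc28 -1.02. A second Lonrf3 probe gave -0.19, and a dimmer Lrrc28 probe gave 0.33, opposite in sign.

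XCT790 alone stood lowest in 2 genes. Arhgap26 measured 7.16, 7.23 and 7.20 in controls, 6.86, 6.79 and 6.95 with T3, 5.33, 6.28 and 5.47 with XCT790 and 7.20, 7.51 and 7.37 with both. The 3 XCT790 arrays were the lowest of the 12, and the interaction was 1.99 (SE 0.28, limma adjusted p = 0.0121). A second Arhgap26 probe gave 0.80 (limma adjusted p = 0.106 over all kept probes). Sort1, a sorting receptor that acts on lipoprotein release from liver, measured 10.29, 10.05 and 10.20 in controls, 10.57, 10.59 and 10.65 with T3, 9.32, 9.20 and 9.15 with XCT790 and 10.57, 10.57 and 10.47 with both. XCT790 lowered it by 0.95 without T3, and the T3 groups with and without XCT790 overlapped. Its interaction was 0.89 (SE 0.13, adjusted p = 0.0157). Another bright Sort1 probe gave 1.02, and of 2 dim ones 1 gave -0.42.

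**Figure D3:**
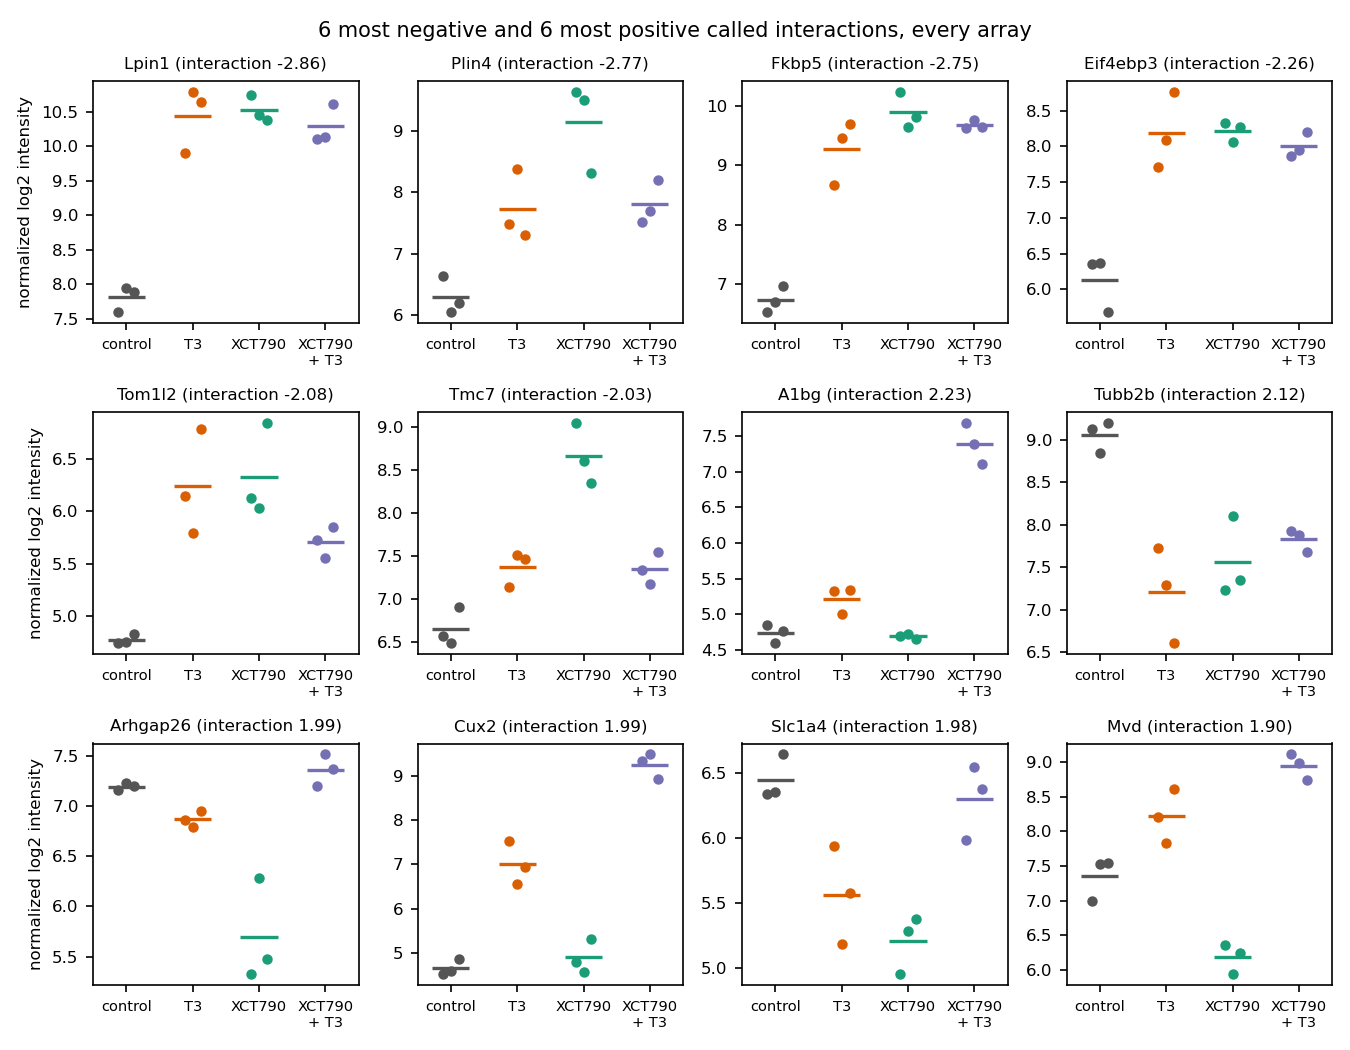
Each panel is a gene and each point an array, with normalized log2 intensity on the vertical axis (scales differ between panels) and the group on the horizontal axis; bars are means of 3 arrays. The first 6 panels are the most negative called interactions and the last 6 the most positive, with A1bg high only in the group given both.

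A1bg was the 1 called gene in which the group given both stood apart, and it had the smallest adjusted p of all. A1bg encodes a plasma glycoprotein whose liver transcript is known in mice as biased to females. Its log2 intensity was 4.85, 4.59 and 4.77 in controls, 5.32, 5.00 and 5.33 with T3, 4.69, 4.71 and 4.65 with XCT790 and 7.68, 7.40 and 7.12 with both. It was detected on 0 of 3 control arrays, 2 of 3 T3 arrays, 0 of 3 XCT790 arrays and all 3 with both, and was at least 4.43-fold higher with both than with XCT790 alone. The interaction was 2.23 (SE 0.20, limma adjusted p = 0.00143), or 2.10 with undetected groups held at the lowest detected signal. Without any single array the adjusted p stayed at or below 0.00926.

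Cux2, a homeobox repressor that is likewise biased to females in mouse liver, responded to T3 in both settings and more strongly with XCT790. It measured 4.52, 4.60 and 4.87 in controls, 7.53, 6.56 and 6.95 with T3, 4.80, 4.57 and 5.33 with XCT790 and 9.33, 9.48 and 8.91 with both. Controls and XCT790 overlapped near background, with 0 and 1 of 3 arrays detected, and the other groups did not overlap. Cux2 was at least 3.58-fold higher with T3 than in controls and at least 16.8-fold higher with both. The interaction was 1.99 (SE 0.35, limma adjusted p = 0.0362), and 1.17 in a dim second probe. With controls held at the lowest detected signal it was 2.5. The XCT790 group, with 1 array detected, was left as measured there, so this value does not show a larger interaction. The call was lost in 9 of 12 fits without 1 array, at adjusted p of up to 0.0956. In the growth hormone and sex-biased list Cux2 and A1bg were the 2 called of 24 tested (0.462% of all genes), and the median interaction was 0.13. In the same list Cyp17a1, which rose by 5.16 with T3 alone and 4.24 with T3 in mice given XCT790, had an interaction of -0.91 (adjusted p = 0.251), and Cyp4a12b, a male-biased fatty acid hydroxylase, had 1.03 (adjusted p = 0.199).

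Mvd and Cyp51, enzymes of cholesterol synthesis, were the other called genes with no group apart and a T3 response larger with XCT790. Mvd, the decarboxylase that ends the mevalonate steps, measured 6.99, 7.54 and 7.55 in controls, 8.21, 7.84 and 8.62 with T3, 6.36, 5.94 and 6.24 with XCT790 and 9.11, 8.98 and 8.75 with both. The 4 groups did not overlap, in the order XCT790, control, T3 and both. T3 raised Mvd 1.82-fold without XCT790 and 6.80-fold with it, and the interaction was 1.90 (SE 0.29, 95% interval 1.26 to 2.54, limma adjusted p = 0.0178). The Mvd call was lost without control array 3 or array 1 of both compounds, at adjusted p of up to 0.0566. Cyp51, the lanosterol demethylase, measured 9.04, 9.24 and 9.27 in controls, 9.77, 9.33 and 9.65 with T3, 8.93, 8.60 and 8.54 with XCT790 and 10.41, 10.09 and 10.13 with both. Its groups kept the same order, and the interaction was 1.12 (SE 0.21, adjusted p = 0.043). That call held in 2 of 12 fits without 1 array, at adjusted p of up to 0.0992.

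In 3 called genes with no group apart the T3 response by group means was smaller with XCT790, all of them lowered by T3. Olig1, a basic helix-loop-helix factor known from oligodendrocytes, measured 9.64, 9.27 and 9.65 in controls, 6.18, 5.98 and 5.86 with T3, 8.55, 8.75 and 8.62 with XCT790 and 6.37, 6.55 and 6.14 with both. Every array with T3 lay below every array without it, with T3 responses of -3.51 without XCT790 and -2.29 with it, and the interaction was 1.22 (SE 0.20, limma adjusted p = 0.0254). Hectd2os, annotated as an opposite-strand transcript of Hectd2, was detected on all arrays without T3 and on none with it. It was at least 8.50-fold lower with T3 than in controls and at least 3.78-fold lower with both than with XCT790. The interaction was 1.42 (1.17 with undetected groups at the lowest detected signal). Both folds are lower bounds, so which T3 response of Hectd2os was larger was not measured. Its log2 mean without T3 was 8.31 in controls and 7.17 with XCT790. Slc35d2, a nucleotide sugar transporter, had 0.78.

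In 30 of the 45 genes the T3 response had opposite signs without and with XCT790, whether or not each response passed the test. Among the 7 of these with no group apart, 4 interactions were positive and 3 negative. Slc1a4, a transporter of neutral amino acids, measured 6.34, 6.35 and 6.64 in controls, 5.94, 5.18 and 5.58 with T3, 4.95, 5.28 and 5.37 with XCT790 and 5.98, 6.55 and 6.37 with both. Either compound alone lowered it and the group given both overlapped the controls, with an interaction of 1.98 (SE 0.28, limma adjusted p = 0.0133). Lpl, the lipase that releases fatty acids from lipoproteins, measured 10.25, 10.23 and 10.30 in controls, 9.54, 9.13 and 9.65 with T3, 9.34, 8.68 and 9.38 with XCT790 and 10.19, 9.86 and 9.99 with both. T3 lowered Lpl by 0.82 without XCT790 and raised it by 0.88 with it, and the interaction was 1.70 (SE 0.26, adjusted p = 0.0178). Rell1 had an interaction of 1.20 (adjusted p = 0.0259), and its T3 response of 0.40 with XCT790 did not pass the test (adjusted p = 0.0779).

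Mfsd2a, a transporter of lysophosphatidylcholine, measured 9.66, 9.73 and 9.83 in controls, 10.10, 10.81 and 10.54 with T3, 11.84, 11.93 and 11.77 with XCT790 and 10.81, 11.04 and 11.04 with both. XCT790 alone was highest, and T3 raised the gene by 0.75 without XCT790 but lowered it by 0.88 with it (interaction -1.63, SE 0.22, limma adjusted p = 0.0116). Il6ra, the interleukin 6 receptor, had the same order of groups and an interaction of -1.58 (SE 0.26, adjusted p = 0.0259), which its 2 dimmer probes shared at -1.25 and -0.83. Tbc1d9, a protein with a Rab GTPase-activating domain, had -1.08 and was detected on 0 of 3 arrays with both compounds, which gave -0.84 with that group held at the lowest detected signal. It was called in 3 of 9 other settings and in 2 of 12 fits without 1 array, at adjusted p of up to 0.101 in the latter, and a second probe gave -0.22. Dlx1as was detected on 3 of 12 arrays and its interaction of 1.01 became -0.08 with undetected groups held at the lowest detected signal, so its values have no direction above background.

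On the unlogged scale, where independent effects would add instead of multiply, the same difference of differences had the sign of the log2 interaction in all 45 genes. Other kept probes existed for 21 of the called genes, and in 18 of these every one shared the direction, the exceptions being Lrrc28, Sort1 and Sult1d1. The direction alone was counted. Among the 18, the other probe gave -0.19 for Lonrf3, -0.22 for Tbc1d9, 0.24 for Erlin1 and 0.07 for Spon2 (limma unadjusted p of 0.35 to 0.755). Among 2772 kept probes without a single gene symbol, adjusted apart, 18 were called, 6 positive and 12 negative.

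The list of cholesterol synthesis and uptake holds enzymes of the pathway from mevalonate to cholesterol and the SREBP2, SCAP and INSIG proteins that regulate them, and 20 members were tested. The median interaction was 1.04, against 0.02 over all genes, and 16 of 20 had a positive interaction at an unadjusted p under 0.05, where 6.69% of all genes did. None of the 20 was negative at that level. In the list 5 genes rose and 1 fell with T3 without XCT790, at an adjusted p under 0.05, where 706 and 868 of all 9747 genes did. With T3 in mice given XCT790 14 of the list rose (744 of all genes), and with XCT790 without T3 6 fell (210 of all genes). The list mean over the 20 genes was 8.88, 9.04 and 9.20 on the control arrays, 9.43, 9.09 and 9.43 with T3, 8.57, 8.38 and 8.47 with XCT790 and 9.73, 9.60 and 9.53 with both, so that XCT790 arrays were lowest and those with both highest, without overlap.

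Other members of this list were picked after their values were seen. Sqle, the squalene epoxidase, rose by 1.25 with T3 without XCT790 and by 2.91 with it, fell by 1.22 with XCT790, and had an interaction of 1.65 (SE 0.33, limma adjusted p = 0.0543). Fdps, the farnesyl diphosphate synthase, was at -0.08 with T3 alone, rose by 1.19 with T3 in mice given XCT790 and had an interaction of 1.26 (adjusted p = 0.0628). Dhcr7, which makes cholesterol from its last precursor, had 1.26 and Idi1, the isopentenyl diphosphate isomerase, 1.17. The regulators did not share one value, with -0.05 for Srebf2, -0.03 for Scap, 1.13 for Insig2 and 0.49 for Insig1. Leaving out any single array left 14 to 16 members positive at an unadjusted p under 0.05. No p is given for the list as a whole, since it was assembled with earlier results of these data known.

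**Figure D4:**
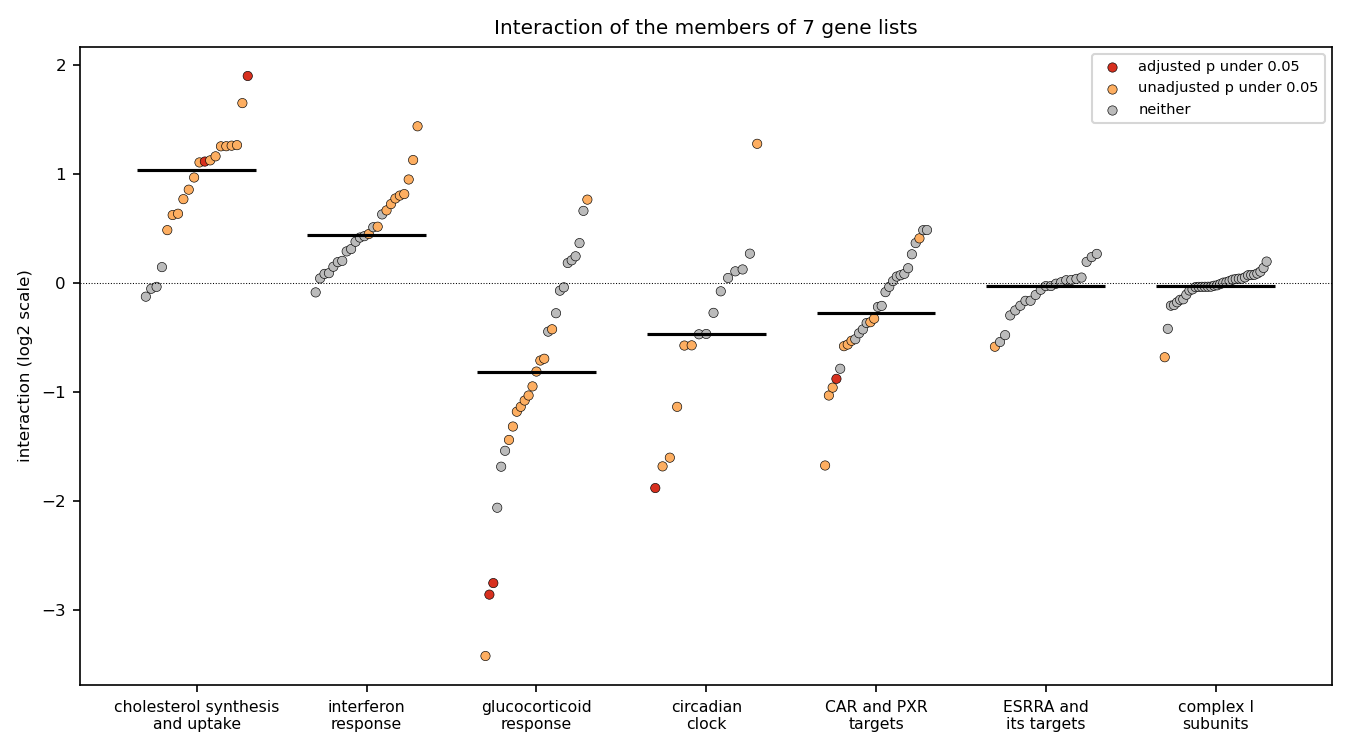
Points are the tested members of 7 gene lists, with the interaction on the log2 scale on the vertical axis and bars at each list's median. Red marks an adjusted p under 0.05, orange an unadjusted p under 0.05 and grey neither; 16 of 20 cholesterol genes lie above 0 and 14 of 27 glucocorticoid genes below it in red or orange, while complex I subunits lie close to 0.

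Genes known to respond to glucocorticoids leaned the other way. Of 27 tested, 14 had a negative interaction at an unadjusted p under 0.05 and 1 a positive one, against 5.43% and 6.69% of all genes, and the median was -0.81. Lpin1 and Fkbp5 were the 2 called. T3 raised 13 and lowered 3 of the 27 without XCT790 (706 and 868 of all 9747 genes), and raised 3 and lowered 3 with it (744 and 737). XCT790 raised 10 and lowered 0 of the 27 without T3 (223 and 210 of all genes). In mice given T3 it changed 0 of the 27, where it changed 9 of all genes. The list mean was 8.68, 8.70 and 8.72 in controls, 9.16, 9.66 and 9.74 with T3, 9.78, 9.49 and 9.61 with XCT790 and 9.48, 9.52 and 9.75 with both. Controls were the lowest group without overlap, T3 array 1 lay between them and the other injected arrays, and the 3 injected groups otherwise overlapped. With T3 array 1 left out 14 members were still negative at that level, and 11 to 15 with any other array left out.

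Mt1, a metallothionein that glucocorticoids and metals induce, had the largest interaction of any gene named here and did not pass the test. It measured 11.13, 10.62 and 10.43 in controls, 12.79, 14.51 and 15.47 with T3, 15.16, 14.32 and 15.42 with XCT790 and 15.08, 14.93 and 15.18 with both. T3 array 1 lay below the other T3 arrays and above the controls, and the interaction was -3.42 (SE 0.73, 95% interval -5.01 to -1.84, limma adjusted p = 0.0618). Mt2 had -2.06 (SE 1.19, adjusted p = 0.553). Irs2, an insulin receptor substrate, was the 1 member positive at an unadjusted p under 0.05, at 0.77 (adjusted p = 0.381).

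Clock genes leaned negative, with a median interaction of -0.47 against 0.02 over all genes, but not every member did so. Of 15 tested, 6 had a negative interaction at an unadjusted p under 0.05 (5.43% of all genes) and 1 a positive one (6.69%). Usp2, among the 6, was called. Ciart, a repressor of the clock, rose by 1.62 with T3 and by 1.70 with XCT790, with an interaction of -1.68 (SE 0.33, limma adjusted p = 0.0529). Per1, also a glucocorticoid target, had -1.14 (adjusted p = 0.0543). Nr1d1, which represses the clock genes of the opposite phase, was the positive one at 1.28 (SE 0.32, adjusted p = 0.111; picked after its value was seen) and stood at -1.48 with XCT790 alone. Dbp, an output gene with a strong daily rhythm, had 0.13. The time of day of each sacrifice is not given in the labels.

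**Figure D5:**
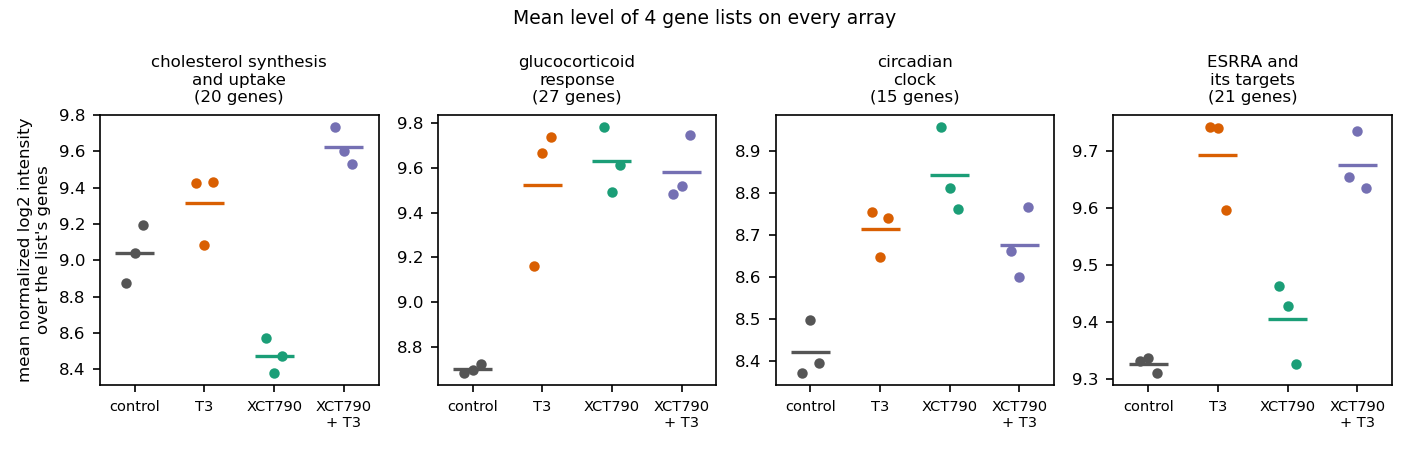
Points are arrays and bars group means of the mean normalized log2 intensity over the tested genes of 4 lists (vertical axes differ). The cholesterol list is lowest with XCT790 and highest with both, the glucocorticoid list is lowest in controls with T3 array 1 at 9.16, and the list of ESRRA targets is higher in both T3 groups.

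Interferon response genes leaned positive, with 10 of 24 positive at an unadjusted p under 0.05 (6.69% of all genes). None was called (0.462% of all genes), and the median was 0.44. Isg15, an interferon-induced ubiquitin-like protein, was at -0.06 with T3 alone and rose by 1.07 with T3 in mice given XCT790, with an interaction of 1.13 (SE 0.22, limma adjusted p = 0.0535). Psmb9, an immunoproteasome subunit, had 0.95 (adjusted p = 0.0795). The list for the drug-sensing receptors CAR and PXR leaned negative, with 9 of 28 negative at an unadjusted p under 0.05 (5.43% of all genes), 1 positive, Sult1d1 called and a median of -0.27. The count of 9 became 5 without control array 3, XCT790 array 3 or array 2 of both compounds. Cyp2b10, the standard CAR target, was detected on 0 of 3 control arrays and was at least 14.8-fold higher with XCT790 and at least 4.80-fold higher with both. T3 lowered it by 1.63 in mice given XCT790, and the interaction of -1.68 did not pass the test (SE 0.44, adjusted p = 0.126). Of 21 PPARA targets tested, 5 were negative and 0 positive at an unadjusted p under 0.05 (5.43% and 6.69% of all genes). Plin4 and Plin5 were called (0.462% of all genes), and the median was -0.30.

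The lists closest to the named target of XCT790 had small median interactions. At 0.462% of all genes called, a count of 0 called in lists of this size says little. Of 21 tested genes in the list of ESRRA and its targets 0 were called. The median was -0.03 and the range -0.58 to 0.27. At an unadjusted p under 0.05, 0 were positive (6.69% of all genes) and 1 was negative (5.43%). That 1 was Esrra itself, which was at 9.48, 9.37 and 9.28 in controls, 9.91, 10.07 and 9.88 with T3, 9.95, 10.14 and 9.75 with XCT790 and 10.00, 9.90 and 9.92 with both. Either compound raised Esrra 1.49-fold and the groups given them overlapped, with an interaction of -0.58 (95% interval -0.93 to -0.23, limma adjusted p = 0.14). Ppargc1a, its coactivator, had -0.48 (-1.09 to 0.14). XCT790 without T3 raised 1 and lowered 0 of the 21 genes at an adjusted p under 0.05 (223 and 210 of all 9747 genes). The median effect of XCT790 on the 21 was 0.02. Among 34 subunits of complex I the interactions ran from -0.68 to 0.20 with a median of -0.02, and 0 were called. Complexes II to V, the TCA cycle and mitochondrial biogenesis and translation had medians of 0.02, -0.08 and 0.02, with 0 called in each. Genes of mitophagy, fission and fusion and of autophagy and lysosomes had medians of -0.03 and -0.09 and 0 called, and Ulk1, a kinase that starts autophagy, had -0.18 (-0.49 to 0.13).

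Classic T3 targets did not share one pattern. Dio1, the liver deiodinase, rose by 2.13 without XCT790 and 2.09 with it, and its interaction was -0.04 with a 95% interval of -0.53 to 0.45. Thrsp, a regulator of lipid synthesis, measured 10.93, 11.40 and 10.66 in controls, 13.53, 13.59 and 13.64 with T3, 11.87, 12.45 and 12.37 with XCT790 and 13.66, 13.56 and 13.52 with both. Both T3 groups overlapped, above all other arrays, while XCT790 alone lay between them and controls, and the interaction of -1.24 did not pass the test (SE 0.26, limma adjusted p = 0.0596). Of 19 thyroid hormone response genes tested, Upp2 was the 1 called (0.462% of all genes). At an unadjusted p under 0.05, 4 were negative and 0 positive (5.43% and 6.69% of all genes). The median interaction was -0.12, with median T3 responses of 1.08 without and 0.56 with XCT790.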

How the data were processed

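Per the file headers, the authors deposited intensity values without normalization, with a detection p-value per probe, for 12 Illumina arrays, and a matrix of processed intensity; the submitters' processing notes name Partek 6.6 without its step. From the values, the deposited intensity was linear and not background-subtracted. Here it was corrected with limma's normexp model (background from the detection p-values, offset 16), put on the log2 scale and quantile-normalized (limma 3.58.1, R 4.3.3). Of 45281 probes, the 17218 detected (p under 0.05) on 3 or more of 12 arrays were kept, named through the platform annotation, and the brightest named probe stood for each of 9747 genes. The summed intensity per array was 14568457 to 22343383, with 31.9% to 35.6% of probes detected; 3 arrays per group limit the precision.

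The 12 arrays entered 1 fit of 4 group means by lmFit and eBayes (two-sided, Benjamini-Hochberg over all genes, threshold 0.05), and the offset understates changes of dim genes. The procedure was tested on simulated data. Against a group with no array detected, folds are bounds.

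The members, the 35 gene lists and the naming rule were chosen with earlier results of these data known. The rule named all called genes with ordinary symbols, up to 2 genes per list with the lowest interaction p, and 11 fixed genes; values of every array were given for at least the 6 largest interactions in each direction. Alternatives were background, scaling, filter, probe choice, variance model, replicate block and leaving out each array. Same-numbered arrays had deviations that correlated at -0.13 to 0.13, and differently numbered arrays at -0.185 to 0.229. These values over all genes gave no sign of pairing, but they cannot exclude a shared source that acts on some genes.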

Additional observations from a re-analysis of the deposited data

Results flagged for a closer look

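The T3 response differed with XCT790, by the test of the interaction itself, in 45 genes. In 9 of them T3 passed the test in opposite directions without and with XCT790, by limma with Benjamini-Hochberg adjustment. The interaction was negative in Plin4 (-2.77), Tmc7 (-2.03), Usp2 (-1.88), Mfsd2a (-1.63), Il6ra (-1.58) and Tbc1d9 (-1.08), which T3 raised without XCT790 and lowered with it. It was positive in Slc1a4 (1.98), Lpl (1.70) and Dlx1as (1.01), which T3 lowered without XCT790 and raised with it. Dlx1as was detected on 0 of 3 arrays with T3 and 0 of 3 with XCT790, so neither of its T3 responses is measured above background on both sides. The interaction of Tbc1d9 was called in 3 of 9 other settings and in 2 of 12 fits without 1 array.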

How the results depend on the processing

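The interaction gave 45 calls, 18 positive and 27 negative. It gave 147 (78 and 69) without background correction, 127 (62 and 65) with an offset of 50, 64 (29 and 35) with median scaling, 141 (73 and 68) from the deposited matrix, 27 (11 and 16) without a filter on dim probes, 91 (40 and 51) with a stricter filter, 61 (27 and 34) with the mean over probes, 84 (27 and 57) over single probes, 131 (68 and 63) with an intensity trend and 80 (34 and 46) with array weights. With the replicate block it gave 25 (13 and 12), 21 of them among the 45. The labels do not say whether the numbers pair the arrays. Leaving out 1 array gave 19 to 96 calls, 7 to 46 positive and 11 to 50 negative. There were 22, 28 and 20 calls without control array 1, 2 or 3, 96, 19 and 22 without T3 array 1, 2 or 3, 21, 31 and 25 without XCT790 array 1, 2 or 3, and 20, 23 and 43 without array 1, 2 or 3 of both. Of the 45, 15 to 43 were called without 1 array, and each kept its sign in the fits above that measured it, but Dlx1as went from 1.01 to -0.08 with undetected groups at the lowest detected signal; 40 to 45 kept their shape. Of the 44 named, 13 were called in every gene-level setting that measured them and every fit without 1 array (A1bg, Arhgap26, Cebpb, Cldn1, Dlx1as, Fbxo31, Fkbp5, Lpin1, Mfsd2a, Slc1a4, Tmc7, Tox and Usp2), and 29 lost the call without at least 1 array, at adjusted p of up to 0.118. The cause of these shifts was not tested, except that omitting the filter raised the genes tested to 19057. The unlogged scale kept 18 positive. The counts of list members at an unadjusted p under 0.05, in fits without 1 array, were added after seeing the data. The number of arrays and, for the 6 called genes with a group of 0 arrays detected, signal near background limit precision.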
